A study of Capsicum annuum and Capsicum chinense and Capsicum annuum var. glabriusculum with 33 samples.

Results

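Stem was set against leaf in 4 of the 33 pepper (Capsicum) RNA libraries of the study, chosen by organ and line alone: stem of Zunla 1 and of HYL against leaf of the same lines. Zunla 1 is an inbred line of C. annuum, and its stem was labelled as developing and its leaf as mature, from greenhouse plants harvested at full bloom. HYL is an inbred line of C. chinense Jacq., and both of its organs were labelled as taken from seedlings. The study's design text instead has these organs of the inbred lines harvested at full bloom, so the stage of HYL is uncertain. The sample labels were followed here. By those labels, the line and the growth stage of the plants cannot be told apart. Leaf of chiltepin, the wild C. annuum var. glabriusculum, served as an outside value. It was a mix of leaves from seedling to fruit breaker (the stage at which fruit starts to colour), from plants grown under long days. Each library is 1 per organ and line, so the lines stand in for replicates. The p-values rest on how the organ difference varied between the lines and on variance shared across genes. They do not measure a spread among plants. The number of plants behind a library is not given in the sources used here.

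A stem carries water and sugar through xylem and phloem and holds up the shoot with thickened, partly lignified walls. A leaf blade is mostly mesophyll, whose chloroplasts capture light and fix carbon. Both organs are green in pepper, both contain vascular strands and epidermis, and both arise from the same shoot tip, so that much of their transcriptome is shared. In bulk RNA, more cells of a type and more RNA per cell cannot be told apart.

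Levels are in RPKM, that is, read counts corrected for the length of the gene model and for the depth of the library. The 4 libraries had totals of 12691809 to 14084101 reads, against 26855552 for chiltepin leaf. A gene of 1 kb with 3 reads had 0.213 to 0.236 RPKM in the 4 libraries and 0.112 RPKM in chiltepin leaf (a limit of counting alone). The file does not pair its 31426 gene IDs with names, and the reference table matched 0 of them. Known stem and leaf markers could not be looked up, so the organ labels were not checked against them, and genes are described here by where they were high.

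Stem and leaf had similar numbers of detected genes. At 1 RPKM or more there were 18773 genes in Zunla 1 stem and 19037 in HYL stem, against 19425 in Zunla 1 leaf and 18331 in HYL leaf. The top 10 genes made up 10.3% and 9.75% of all RPKM in Zunla 1 and HYL stem, against 11.1% and 11.6% in Zunla 1 and HYL leaf. In chiltepin leaf they made up 17.4%. Of the 100 most abundant genes of stem, 63 were also among the 100 most abundant of leaf, while chiltepin leaf shared 23 of its 100 with leaf and 17 with stem.

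The most abundant gene of stem by the mean over the lines was Capana03g003187, at 18677 RPKM in Zunla 1 stem and 20755 RPKM in HYL stem, against 19902 RPKM in Zunla 1 leaf and 17252 RPKM in HYL leaf. Stem and leaf overlapped for this gene, which was also at 15878 RPKM or more in every root, flower and fruit library of these lines that was looked at. The second, Capana12g002786, had 17384 and 4143 RPKM in Zunla 1 and HYL stem, against 3818 and 1074 RPKM in Zunla 1 and HYL leaf. Within each line it was higher in stem, but HYL stem and Zunla 1 leaf were close, and it did not pass the test described below (limma log2 fold change 2.07, SE 0.839, adjusted p = 0.266).

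The most abundant gene of leaf was Capana03g004132. It had 7559 RPKM in Zunla 1 stem and 5196 RPKM in HYL stem, against 26148 RPKM in Zunla 1 leaf and 28462 RPKM in HYL leaf. Both leaves lay above both stems, yet the gene did not pass (limma log2 fold change -2.12, SE 1.20, adjusted p = 0.426). It was no leaf gene in the wider set either, with 22733 RPKM in Zunla 1 root and 1870 RPKM in chiltepin leaf. Among the 100 most abundant genes of stem, 2 rose in stem, against 0.732% of all genes tested. Among the 100 of leaf, 2 fell in stem, against 0.376% of all genes tested.

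These 4 genes were named after their values were seen. Capana06g000782 was at 2950 and 447 RPKM in Zunla 1 and HYL stem, against 263 and 46.2 RPKM in Zunla 1 and HYL leaf. Capana03g004083 was at 977 and 1240 RPKM in the stems, against 180 and 130 RPKM in the leaves. Capana06g002516 was at 77.2 and 83.3 RPKM in the stems, against 1003 and 1987 RPKM in the leaves. For Capana06g002516 the wild pepper differed from both lines, with 3.19 RPKM in chiltepin leaf. Capana07g001980 was at 112 and 168 RPKM in the stems, against 581 and 1626 RPKM in the leaves.

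How far stem and leaf stood apart was first described within each line, on log2(RPKM + 1), for the 19954 genes that reached 1 RPKM in 2 or more of the 4 libraries. In Zunla 1, 540 genes (2.71%) were at least 4-fold higher in stem and 513 (2.57%) at least 4-fold lower. In HYL, 1105 genes (5.54%) were at least 4-fold higher in stem and 637 (3.19%) at least 4-fold lower. The organs of HYL, labelled as from seedlings, thus stood further apart than the organs of Zunla 1. The excess was mainly of genes higher in stem. HYL stem and Zunla 1 stem were at least 4-fold apart in 2085 genes, HYL leaf and Zunla 1 leaf in 1563, HYL stem and HYL leaf in 1742, and Zunla 1 stem and Zunla 1 leaf in 1053.

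**Figure D1:**
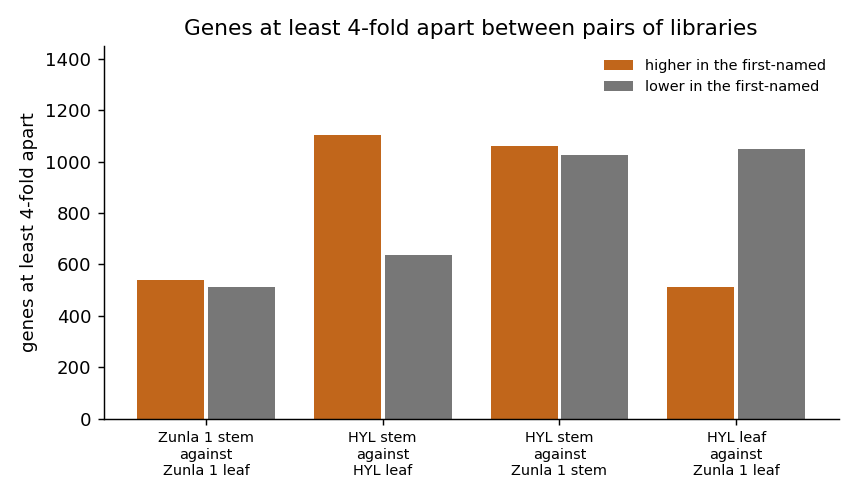
Number of genes (vertical axis) at least 4-fold apart on log2(RPKM + 1) between 2 libraries, for stem against leaf within a line and for HYL against Zunla 1 within an organ. Orange bars count genes higher in the library named first and grey bars genes lower in it. HYL stem against HYL leaf shows the imbalance of 1105 higher and 637 lower genes, and Zunla 1 stem against Zunla 1 leaf the smallest counts, 540 and 513.

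Summed over the 19954 genes, the organ accounted for 34.7% of the sum of squares among the 4 libraries, the line (with its growth stage) for 49.7%, and the part in which the organ difference itself varied between the lines for 15.6%. The organ was the largest of these parts in 7949 genes (39.8%), which are the genes whose stem and leaf values do not overlap, and the line was the largest in 8394 (42.1%). Levels of stem and leaf correlated across genes at r = 0.88 in Zunla 1 and r = 0.84 in HYL. Between the lines, r was 0.79 for the stems and 0.84 for the leaves. Genes are the points of these correlations and are not replicates of one another.

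The stem minus leaf differences of the lines, which share no library, correlated across the 19954 genes at Pearson's r = 0.39 and Spearman's rho = 0.38, and 62.0% of genes had the same sign. Of the genes at least 4-fold higher in stem, 216 were so in both lines, which is 40.0% of the Zunla 1 list and 19.5% of the HYL list. Of those at least 4-fold lower, 123 were so in both lines, which is 24.0% of the Zunla 1 list and 19.3% of the HYL list. Both directions together came to 339 genes (1.70%). Of all genes tested, the 216 are 1.08% and the 123 are 0.616%. The background for the Zunla 1 lists is the share of all genes at least 4-fold apart in HYL, 5.54% higher and 3.19% lower. For the HYL lists it is the share in Zunla 1, 2.71% higher and 2.57% lower.

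The lists carried over from 1 line to the other unevenly. Of the 540 genes higher in Zunla 1 stem, 477 (88.3%) were also higher in HYL stem than in HYL leaf, with a median HYL difference of 1.62. Of the 637 genes lower in HYL stem, 576 (90.4%) were also lower in Zunla 1 stem, with a median Zunla 1 difference of -1.08. Of the 513 genes lower in Zunla 1 stem, 338 (65.9%) were lower in HYL stem, with a median HYL difference of -0.74. Of the 1105 genes higher in HYL stem, 768 (69.5%) were higher in Zunla 1 stem, with a median Zunla 1 difference of 0.68. The background over all genes was 44.6% higher and 54.6% lower in Zunla 1 stem, and 48.9% higher and 49.5% lower in HYL stem.

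With limma on log2(RPKM + 1), the line as a block and Benjamini-Hochberg adjustment over 19954 genes, 221 genes (1.11%) passed at an adjusted p under 0.05. Of these, 146 (0.732% of genes tested) rose in stem and 75 (0.376%) fell. The rises had log2 fold changes of 2.36 to 6.31 with a median of 3.20, and the falls of -6.18 to -2.26 with a median of -3.12. The median over all genes tested was -0.04. The rises had a median over genes of 43.6 RPKM in stem and 2.88 RPKM in leaf, and the falls of 5.87 RPKM in stem and 68.2 RPKM in leaf. The block left 1 residual degree of freedom per gene, so the calls lean on the variance shared across genes. On simulated data, false calls ran above the nominal rate. Under limma 0 genes passed without the block (1706 at an unadjusted p under 0.05, against 3407 with it), and 0 passed when the spread was shared with root (3668 unadjusted).

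**Figure D2:**
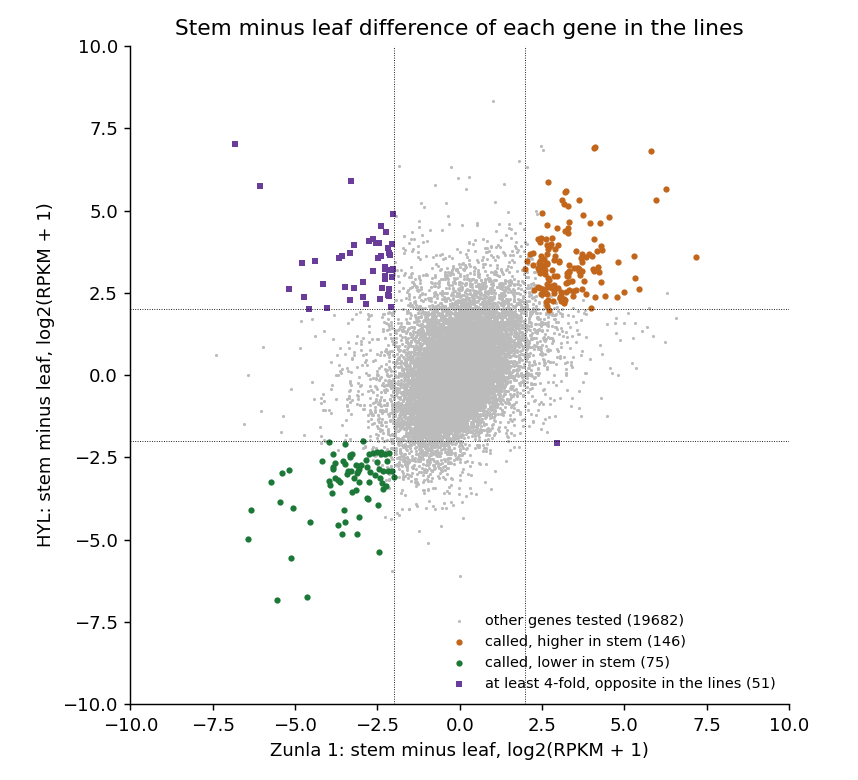
Stem minus leaf difference of each of the 19954 genes on log2(RPKM + 1), in Zunla 1 on the horizontal and in HYL on the vertical axis, with 1 point per gene. Dotted lines mark 4-fold. The 146 called rises (orange) and 75 called falls (green) lie along the diagonal, and the 51 genes at least 4-fold apart in opposite directions (purple) lie with 1 exception in the upper left. The test favours genes that differ alike in both lines, so the placing of the called genes is largely fixed by it.

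The largest rise among called genes was Capana10g000103, with a model of 600 coding bases. It had 173 RPKM in Zunla 1 stem and 284 RPKM in HYL stem, against 2.10 RPKM in Zunla 1 leaf and 1.56 RPKM in HYL leaf. Both stems lay far above both leaves, and chiltepin leaf was lower still at 0.186 RPKM. The limma log2 fold change was 6.31 (SE 0.442, adjusted p = 0.00877). The gene was not confined to stem, with 182 RPKM in HYL root, 23.9 RPKM in Zunla 1 root and 1130 RPKM in Zunla 1 fruit 3 days after breaker, its highest value among the stem, leaf and outside libraries described here.

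Capana01g001090 was the second largest rise, with 560 and 210 RPKM in Zunla 1 and HYL stem, against 6.27 and 3.21 RPKM in Zunla 1 and HYL leaf. Its limma log2 fold change was 5.96 (SE 0.406, adjusted p = 0.00877). The stems did not overlap the leaves, and chiltepin leaf had 9.34 RPKM, close to Zunla 1 leaf. Outside the shoot the lines parted, with 79.7 RPKM in Zunla 1 root and 0.454 RPKM in HYL root.

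The largest fall among called genes was Capana02g003468, with 1.14 RPKM in Zunla 1 stem and 0.122 RPKM in HYL stem, against 98.5 RPKM in Zunla 1 leaf and 126 RPKM in HYL leaf. Its limma log2 fold change was -6.18 (SE 0.494, adjusted p = 0.0116). The value of HYL stem rests on 3 reads and that of HYL leaf on 2921. Chiltepin leaf had 33.4 RPKM, and no other library of Zunla 1 or HYL looked at exceeded 1.78 RPKM, the value of Zunla 1 flower, so the gene was high in the 3 leaves alone among these libraries.

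Capana04g000450 was the second largest fall, with 0.147 and 1.22 RPKM in Zunla 1 and HYL stem, against 98.2 and 69.0 RPKM in Zunla 1 and HYL leaf. Its limma log2 fold change was -5.71 (SE 0.516, adjusted p = 0.0190), and Zunla 1 stem had 1 read. Chiltepin leaf, at 131 RPKM, was above both other leaves. Roots were intermediate, with 11.7 RPKM in Zunla 1 and 17.5 RPKM in HYL.

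**Figure D3:**
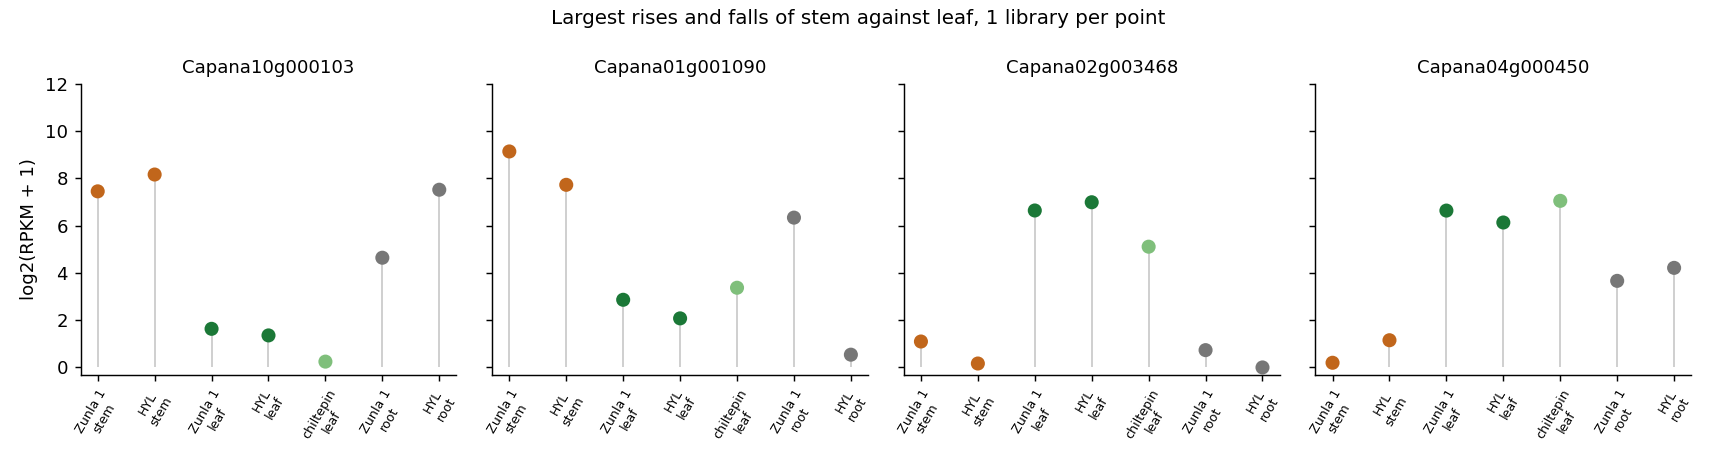
Level of the 2 largest rises and 2 largest falls on log2(RPKM + 1) (vertical axis), with 1 point per library for stem (orange), leaf (green), chiltepin leaf (light green) and root (grey). Chiltepin leaf lies with the leaves for all 4 genes, at 0.186, 9.34, 33.4 and 131 RPKM, while the roots do not follow a single organ.

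A few called genes had consecutive ID numbers. Capana04g000450 was followed by Capana04g000451 and Capana04g000452, which were picked out after their values were seen. Capana04g000451 was at 0.290 and 0.301 RPKM in Zunla 1 and HYL stem, against 19.3 and 11.1 RPKM in Zunla 1 and HYL leaf. Capana04g000452 was at 0.127 and 0.0660 RPKM in the stems, against 25.4 and 22.5 RPKM in the leaves. All 3 fell in stem by the limma test (adjusted p = 0.0190, 0.0320 and 0.0214), all 3 were above 20 RPKM in chiltepin leaf, and all 3 were intermediate in root, at 5.16 to 17.5 RPKM. In Zunla 1 and HYL stem Capana04g000451 had 2 reads each, and Capana04g000452 had 2 and 1 reads, all below the floor of 3 reads.

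A like run was seen among genes higher in stem. Capana03g004082 had 6.68 and 16.6 RPKM in Zunla 1 and HYL stem, against 0.247 RPKM in Zunla 1 leaf and 0 reads in HYL leaf, where 3 reads would be 0.244 RPKM. It was the only gene of those at 5 RPKM or more in both stems and under 0.5 RPKM in both leaves that stayed under 1 RPKM in all 16 outside libraries looked at. Its neighbour by number Capana03g004083 is described above. Capana03g004084 had 405 and 1838 RPKM in the stems, against 94.4 and 151 RPKM in the leaves, and just missed the threshold (limma adjusted p = 0.0555). Of the 11606 pairs of tested genes with consecutive numbers, both members were at least 4-fold higher in stem in both lines in 8 pairs (0.0689%), and both were lower in 3 pairs (0.0258%). In 2 pairs (0.0172%) the members went at least 4-fold in opposite directions. Over all such pairs the log2 fold changes correlated at r = 0.13. How reads shared by near-identical copies were counted is not given in the sources used here, so values of look-alike neighbours are uncertain.

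Genes present in 1 organ and nearly absent from the other were rare. At 5 RPKM or more in both stems and under 0.5 RPKM in both leaves there were 16 of 31426 genes, and 9 showed the reverse. Of the 16 stem genes, 13 were at 1 RPKM or more in both roots and 4 in chiltepin leaf. Of the 9 leaf genes, 6 were at 1 RPKM or more in chiltepin leaf and 4 in both roots. Of all 31426 genes, 18036 were at 1 RPKM or more in chiltepin leaf, so the count for the leaf genes is near the background. The like background for both roots is not given here, and these few genes are a description only.

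The called genes were then followed into 16 libraries that took no part in the comparison, which were chiltepin leaf, 2 roots, bud, flower and 11 fruit libraries of the lines. A position was used for this, with 0% at the mean leaf and 100% at the mean stem level of each gene on log2(RPKM + 1). The scale is set by the genes' own called difference, so only the placing of the outside libraries on it is a description of something else.

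The 146 rises were nearest to their stem level in root. They had a median of 36.8 RPKM in HYL root and 28.1 RPKM in Zunla 1 root, beside 38.4 RPKM in Zunla 1 stem and 37.6 RPKM in HYL stem, against 3.24 RPKM in Zunla 1 leaf and 2.58 RPKM in HYL leaf. Their median position was 94.2% in HYL root and 67.7% in Zunla 1 root, the 2 highest of the 16 libraries. By count the rises were close to the background. In HYL root 107 of the 146 (73.3%) were nearer to stem than to leaf, against 67.2% of all genes tested. In Zunla 1 root 88 (60.3%) were, against 64.6% of all genes tested. In HYL root 125 of the 146 (85.6%) lay above both leaves, against 39.0% of all genes tested. In Zunla 1 root 114 (78.1%) did so, against 35.4% of all genes tested. Genes chosen for low leaf values exceed the leaves easily. In Zunla 1 fruit of 1 to 3 cm 68.5% of the rises did so, against 37.3% of all genes tested. At 4 to 5 cm the shares were 67.8% and 35.0%. They were 61.0% and 18.7% in flower, 46.6% and 23.9% in bud, and 45.2% and 23.8% in chiltepin leaf. Zunla 1 fruit before breaker varied, with positions of 42.7% at 4 to 5 cm, 41.9% at 1 to 3 cm, 28.1% at 0 to 1 cm, 24.2% at 3 to 4 cm and 7.54% at mature green. Bud, at 6.14%, and Zunla 1 fruit from breaker on, at -8.96% to 0.64%, lay near the leaf level.

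The 75 falls had lower medians in root, flower and fruit than in any leaf library. Their median was 2.71 RPKM in Zunla 1 root and 2.67 RPKM in HYL root, 5.72 RPKM in bud, 7.64 RPKM in flower and 0.696 RPKM in mature green fruit of Zunla 1. In the same libraries all genes tested had medians of 7.70 to 13.3 RPKM. The median position was 100% or above in the roots and in all 11 fruit libraries, so that the falls were as low there as in stem or lower. Flower, at 76.1%, and bud, at 92.3%, lay below that but still nearer to stem than to leaf. Among the 12 Zunla 1 libraries other than stem and leaf, the falls were highest in bud or flower in 27 of 72 genes (37.5%), against 15.1% of genes not called. The rises were highest in root in 54 of 143 genes (37.8%), against 17.9% of genes not called. Genes under 1 RPKM in all 12 libraries were left out of these counts.

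**Figure D4:**
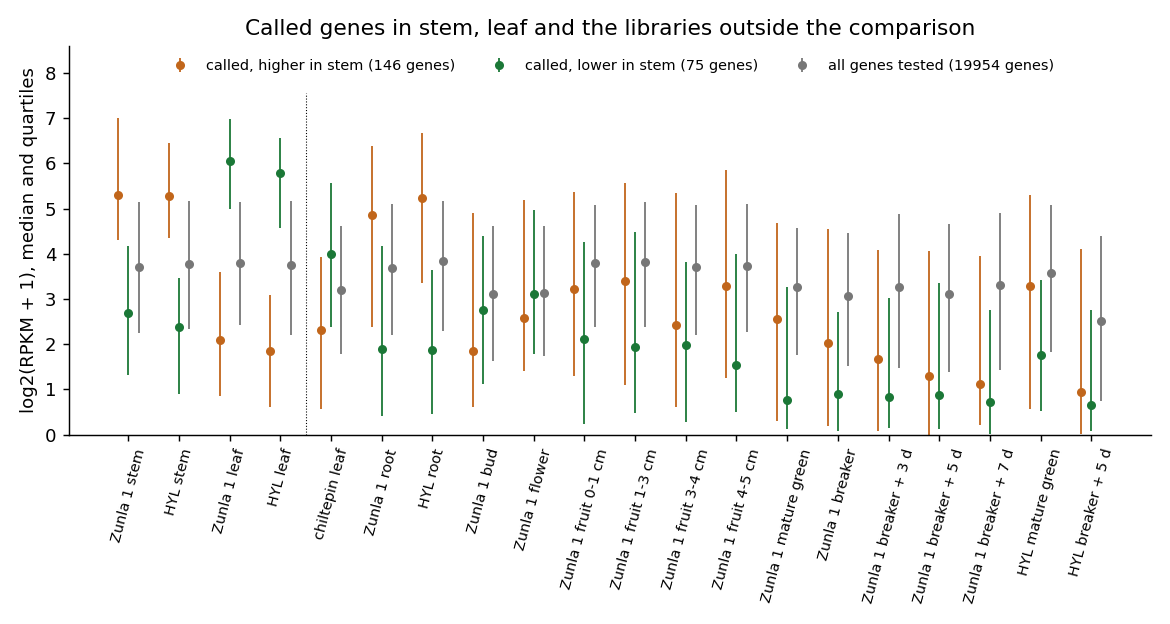
Median and quartiles over genes of log2(RPKM + 1) (vertical axis) in each library, for the 146 called rises (orange), the 75 called falls (green) and all 19954 genes tested (grey). Left of the dotted line are the 4 libraries that chose the genes, where the gap is fixed by that choice. To the right, the rises stay high in both roots, and the falls exceed the rises in chiltepin leaf, bud and flower.

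Chiltepin leaf was the outside leaf. For the 75 falls it had a median position of 54.9%, the lowest of the 16 outside libraries, and 54 of 75 genes (72.0%) lay above both stems, against 20.9% of genes not called. Genes chosen for low stem values exceed the stems easily. Chiltepin leaf also lay below both leaves for 52 of the 75 (69.3%), against 57.5% of genes not called. It was nearer to stem than to leaf for 41 of the 75 (54.7%), against 52.8% of genes not called. By that count the falls were close to the background. Flower also lay above both stems for many of the falls, 44 of 75 (58.7%) against 15.1% of genes not called, and bud for 31 (41.3%) against 20.0%. For the 146 rises its median position was 4.35%, and 133 of 146 genes (91.1%) lay below both stems, against 55.3% of genes not called. Buds and fruit from breaker on were below both stems for a similar share of the rises, 80.1% to 87.7%, so the count for the rises does not set leaf apart from other organs. Chiltepin leaf had lower levels than the 4 stem and leaf libraries, by a median over genes of 0.61 against Zunla 1 leaf on log2(RPKM + 1), and its top 100 genes made up 45.0% of all RPKM, against 26.1% in Zunla 1 leaf. With median-of-ratios scaling of these libraries the median position was 34.1% for the falls and 18.9% for the rises. Of the falls, 58 then lay above both stems and 32 were nearer to stem than to leaf. Of the rises, 125 lay below both stems. Scaling divided chiltepin leaf by 0.694, so the unscaled shares of genes not called are no background for these counts. Scaled shares are not given here.

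The organ difference was turned round between the lines in 51 genes at least 4-fold. In 50 of them (0.251% of genes tested) stem was lower than leaf in Zunla 1 and higher than leaf in HYL, and the reverse held in 1 gene (0.00501%). The count of 51 depends on the pseudocount, with 206 genes at 0.1 and 14 at 5. With 1 library per organ and line this difference could not be tested. The 50 genes had medians of 1.40 RPKM in Zunla 1 stem and 43.7 RPKM in HYL stem, against 20.7 RPKM in Zunla 1 leaf and 1.99 RPKM in HYL leaf. This contrast is largely fixed by the rule that chose the genes.

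The 50 genes were spread widely in level. In HYL stem they ran from 3.10 to 18928 RPKM and in Zunla 1 stem from 0 to 829 RPKM, against 3.21 to 10517 RPKM in Zunla 1 leaf and 0 to 1619 RPKM in HYL leaf. Outside these libraries their level was highest in the smallest fruit of Zunla 1 (0 to 1 cm), at a median of 39.3 RPKM, against 12.9 RPKM for all genes tested. It was 19.2 RPKM in fruit of 1 to 3 cm, 10.7 RPKM in bud, 19.2 RPKM in HYL root, 5.48 RPKM in Zunla 1 root and 10.9 RPKM in chiltepin leaf. From breaker on it was 0.436 RPKM or less in Zunla 1 fruit. Of the 12 Zunla 1 libraries other than stem and leaf, fruit of 0 to 1 cm was the highest for 21 of 50 genes (42.0%), against 15.0% of all genes tested.

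The widest turn was in Capana10g000285, with 0 reads in Zunla 1 stem and 181 RPKM in HYL stem, against 111 RPKM in Zunla 1 leaf and 0.390 RPKM in HYL leaf. Zunla 1 stem allows up to 0.534 RPKM at 3 reads, and the value in HYL leaf rests on 2 reads. Capana10g000283 followed, with 2.87 and 1154 RPKM in Zunla 1 and HYL stem, against 257 and 20.8 RPKM in Zunla 1 and HYL leaf. Both genes were at 0 reads in Zunla 1 root and high in bud, at 134 and 1468 RPKM. Capana10g000283 reached 26752 RPKM in Zunla 1 fruit of 0 to 1 cm, and Capana10g000285 had its highest Zunla 1 value in flower, at 150 RPKM. The 1 gene with the reverse pattern was Capana01g000493, with 13.4 and 2.75 RPKM in Zunla 1 and HYL stem, against 0.840 and 14.5 RPKM in Zunla 1 and HYL leaf.

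**Figure D5:**
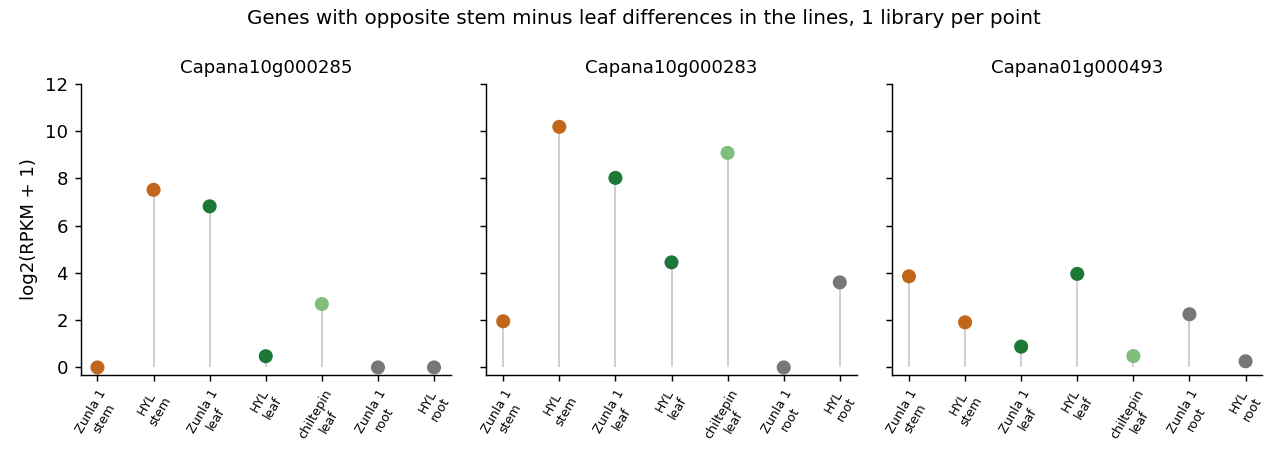
Level on log2(RPKM + 1) (vertical axis) of 3 genes whose stem minus leaf difference was opposite in the lines, with 1 point per library for stem (orange), leaf (green), chiltepin leaf (light green) and root (grey). Among the stems and leaves of the lines, HYL stem and Zunla 1 leaf are the high points of Capana10g000285 and Capana10g000283, and Zunla 1 stem and HYL leaf those of Capana01g000493. Chiltepin leaf is also high for Capana10g000283, at 537 RPKM.

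The called genes did not stand out by the length of their models. The median coding length was 918 bases for 145 rises and 1014 bases for 73 falls with a recovered length, against 1017 bases for 19887 genes tested.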

How the data were processed

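The labels' protocols describe paired-end sequencing of poly(A) RNA on an Illumina HiSeq. The authors deposited RPKM per gene and library, with no library pooled and 0 columns unused. For the aligner, counter, genome build and annotation, nothing is given in the sources used here, and no sequence of these genes was at hand.

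Ratios of low RPKM values gave the read totals as exact fractions, and then coding lengths for 25556 genes, all of them multiples of 3. Of their values 100% were whole within 0.01 reads. That is partly fixed by how lengths were found. Intervals and floors cover counting error only. No pair among the 4 libraries agreed within sampling noise (lowest mean chi-square of 110 per gene), so none was counted as a duplicate.

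Stem was compared with leaf in limma 3.58.1 (R 4.3.3; lmFit, eBayes with trend, two-sided) on log2(RPKM + 1), with line as a block. Genes needed 1 RPKM or more in at least 2 of 4 libraries, and were called at a Benjamini-Hochberg adjusted p under 0.05. Line names in the titles pair stem and leaf. The HYL minus Zunla 1 differences of stem and of leaf correlated across genes at r = 0.53. On simulated data the fit found 93.9% of 66 genes changed 16-fold, 16.4% of 67 changed 4-fold and 1.49% of 67 changed 2-fold. It also called 17 unchanged genes, a share of the calls above the nominal rate. The cause was not tested. Fold changes on this scale understate those of low genes.

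Genes were named by rule. These were the 2 largest called rises and falls whose higher organ averaged 10 RPKM or more, with both lines in that direction, the 2 widest opposite genes per direction, and the 2 most abundant genes per organ. The comparison and lists were chosen with earlier results of these data known. Alternatives (pseudocount, filter, scaling, block, shared spread, libraries left out) are given in the closing section, and the scaled chiltepin leaf values were added after the data were seen. Lists by product name could not be used without gene names.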

Additional observations from a re-analysis of the deposited data

Results flagged for a closer look

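The lines went opposite ways in 51 genes, which stand out because stem moved at least 4-fold one way in Zunla 1 and at least 4-fold the other way in HYL. In 50 genes stem was lower than leaf in Zunla 1 and higher in HYL, and in 1 gene the reverse held. The difference between the lines was not tested, since each organ and line was 1 library. Capana10g000285 had a stem minus leaf difference on log2(RPKM + 1) of -6.81 in Zunla 1 and 7.04 in HYL. Capana10g000283 had -6.06 in Zunla 1 and 5.73 in HYL. Capana01g000493, the 1 gene with the reverse pattern, had 2.97 in Zunla 1 and -2.05 in HYL. By the sample labels, growth stage moved with the line in every one of these values, with full-bloom plants in Zunla 1 and seedlings in HYL. The design text conflicts with the HYL label, as said in the opening. The part of growth stage cannot be told apart from that of the line.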

How the results depend on the processing

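The count of 221 called genes was 235 with median-of-ratios scaling, 178 with robust eBayes and 173 without the trend. It was 438 for genes with a mean of at least 5 RPKM (253 higher, 185 lower), of which 195 were among the 221. It was 2 with a pseudocount of 0.1, 3 with no filter, and 0 with a pseudocount of 5 (limma, 3096 genes at an unadjusted p under 0.05). It was also 0 with no replicate block (1706 unadjusted), with the spread shared with root (3668) or with root and flowers (3192), and with chiltepin leaf added to the leaves and no block (1099). Leaving out each of the 4 libraries in turn, with no block, gave 0 to 0 calls (763 to 2215 unadjusted), where a lone library is assumed to vary like the others. Fits that change only the variance or the block leave the fold changes as they are, so a kept sign shows nothing there. The cause of the lost calls was not tested. Of the 4 named genes, the 2 rises passed in 7 and the 2 falls in 5 of 16 settings, at limma adjusted p up to 1.00 elsewhere. The share of rises among calls was 66.1%, 69.4% with scaling and 57.8% for genes with a mean of at least 5 RPKM. Genes at least 4-fold apart in both lines numbered 339, then 711 with a pseudocount of 0.1, 115 with 5, 343 with scaling and 306 with a mean of at least 5 RPKM. Genes opposite in the lines numbered 51, then 206 with a pseudocount of 0.1 (197 against 9), 14 with 5 (14 against 0) and 47 with scaling. The correlation of the lines was 0.37 and 0.39 with pseudocounts of 0.1 and 5, 0.36 with no filter and 0.41 with a mean of at least 5 RPKM, settings added after the data were seen. At 12691809 reads or more per library, values under about 0.2 RPKM for a gene of 1 kb cannot be told from 0.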
